A study of Mus musculus with 6 samples.

Results

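The 36 genes described here encode proteins of blood coagulation and fibrinolysis, chosen by symbol from the authors' deposited table of 22173 gene symbols, where all 36 were present. They were arranged by role as 16 procoagulant genes, 8 anticoagulant genes, 4 fibrinolytic activator genes, 2 inhibitors of fibrinolysis, 4 other plasma proteins that bind or cleave members of the cascade, and 2 enzymes of the vitamin K cycle. The study compared livers of 3 wild-type mice given DDK, a small molecule that the series title calls a limonoid, with livers of 3 wild-type mice given vehicle. All 6 mice were fed the HFHC diet for 16 weeks from an age of 6 weeks and received DDK or vehicle during the last 4 weeks. The diet and the compound are named in the labels only by these abbreviations, so every comparison is of DDK against vehicle under that diet, with no group on another diet. The sources used here do not state sex, strain or dose.

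Coagulation runs as a series of serine proteases that activate each other on membranes, ending with thrombin, which turns soluble fibrinogen into fibrin, and with factor XIII, which crosslinks it. Antithrombin, protein C with protein S, and tissue factor pathway inhibitor restrain the series, and plasmin, made from plasminogen by the urokinase and tissue-type activators, dissolves fibrin. Hepatocytes make most of these plasma proteins, and several of them must be carboxylated by a vitamin K dependent enzyme to work. Factor VIII, thrombomodulin, tissue factor pathway inhibitor and tissue-type plasminogen activator come largely from endothelial cells, and urokinase and its receptor largely from non-parenchymal cells.

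The values were FPKM, that is fragments per kilobase of gene length and scaled to the fragments of the library, calculated from 26576291 to 30237490 fragments per DDK liver and 33963898 to 36105315 per vehicle liver. Changes are log2 fold changes of FPKM + 1 from limma over 10681 genes, given with their standard error (SE), and the threshold was a Benjamini-Hochberg adjusted p of 0.05 over all of them. All genes tested had a median change of -0.23, and 30.3% of genes tested were called lower and 10.2% higher in DDK. Vehicle replicate 1 stood nearest to the DDK livers on the first principal component (14.1, against 36.2 and 40.0 for the other vehicle livers and -36.4 to -23.6 for DDK), so its value is given for each gene described in full. Hepatocyte markers summed to an FPKM of 35542 to 45900 in vehicle and 59845 to 63226 in DDK livers, and 3 of 12 rose while 3 fell. The largest part of that sum was Alb, albumin, at 17336 to 21423 in vehicle and 33702 to 37838 in DDK. Macrophage and Kupffer cell markers summed to 488 to 759 in vehicle and 173 to 439 in DDK (7 of 12 fell, 0 rose), and stellate cell and fibroblast markers to 149.6 to 194 and 68.6 to 92.5 (9 of 12 fell, 0 rose). Endothelial markers summed to 101.5 to 157 in vehicle and 76.3 to 103 in DDK (6 of 12 fell, 0 rose), and no marker of these 4 lists was at 0 in every library.

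The 3 fibrinogen genes and the neighbouring factor VII and factor X genes are shown by their promoters, because the fibrinogen genes lie side by side and are known to respond together to interleukin-6, and because F7 and F10 are neighbours that both rose. The sequences are those of RefSeq on GRCm38.p6, from 250 bases before to 50 bases after the gene's start, written 5′ to 3′ on the gene's strand. Of the 36 members, 29 had a promoter in the table on a chromosome that is printed here. Capitals mark every match, on either strand, to CTGGGA (the core of the type II interleukin-6 response element), TTCNNNGAA (the STAT palindrome), GTTAAT (a part of the HNF1 site), CAAAGTCCA (an HNF4 site) or TATAAA (the TATA box). Fga is at chr3:83025903-83026202 (plus strand), Fgb at chr3:83049814-83050113 (minus), Fgg at chr3:83007474-83007773 (plus), F7 at chr8:13025784-13026083 (plus) and F10 at chr8:13037058-13037357 (plus).
Fga: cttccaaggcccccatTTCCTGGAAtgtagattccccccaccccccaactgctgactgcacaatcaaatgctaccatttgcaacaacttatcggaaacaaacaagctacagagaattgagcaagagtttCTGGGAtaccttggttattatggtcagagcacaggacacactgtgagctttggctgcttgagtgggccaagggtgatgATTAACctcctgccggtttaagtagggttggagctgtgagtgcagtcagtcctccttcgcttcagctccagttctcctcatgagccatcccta
Fgb: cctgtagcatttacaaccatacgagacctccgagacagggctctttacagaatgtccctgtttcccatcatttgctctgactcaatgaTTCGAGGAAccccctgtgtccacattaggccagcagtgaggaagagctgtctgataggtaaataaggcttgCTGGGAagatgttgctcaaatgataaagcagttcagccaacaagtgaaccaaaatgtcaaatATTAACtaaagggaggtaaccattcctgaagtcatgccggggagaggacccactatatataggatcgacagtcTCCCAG
Fgg: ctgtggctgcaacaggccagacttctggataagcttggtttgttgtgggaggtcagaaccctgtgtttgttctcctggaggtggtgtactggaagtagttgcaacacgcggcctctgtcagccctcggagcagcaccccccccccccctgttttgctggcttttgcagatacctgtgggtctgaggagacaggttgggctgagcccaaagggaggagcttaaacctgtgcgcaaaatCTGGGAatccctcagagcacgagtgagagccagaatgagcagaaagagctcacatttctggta
F7: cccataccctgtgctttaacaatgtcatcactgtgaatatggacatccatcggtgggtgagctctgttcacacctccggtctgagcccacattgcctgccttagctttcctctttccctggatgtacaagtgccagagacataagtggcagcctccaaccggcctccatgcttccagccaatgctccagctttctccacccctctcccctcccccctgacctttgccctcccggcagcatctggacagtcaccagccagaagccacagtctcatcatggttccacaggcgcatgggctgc
F10: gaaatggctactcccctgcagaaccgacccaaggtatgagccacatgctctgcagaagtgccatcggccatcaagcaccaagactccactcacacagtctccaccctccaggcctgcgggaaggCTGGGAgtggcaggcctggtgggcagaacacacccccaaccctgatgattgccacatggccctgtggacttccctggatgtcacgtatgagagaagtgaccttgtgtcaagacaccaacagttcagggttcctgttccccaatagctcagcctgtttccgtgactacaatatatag
CTGGGA was in all 3 fibrinogen windows and in that of F10, and it is a common string, present in 31.8% of all 32851 promoters of the table and in 14 of the 29 members. The first share is per promoter, while a member counted if any of its promoters matched, so these are unlike units. The STAT palindrome was in the windows of Fga and Fgb (8.30% of all promoters), as was the HNF1 string (7.10% of all promoters), and neither was in that of Fgg. No exact match to the HNF4 or TATA strings lay in these 5 windows, and no string of the 5 lay in the F7 window. The HNF4 string is rare, in 0.475% of all promoters and in 0 of the 29 members, so its absence here says little. TATAAA was in 13.6% of all promoters. Other forms of these sites were not searched for. These matches describe the letters only.

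Of the 3 fibrinogen chains, which assemble into a single protein in equal numbers, the alpha chain's transcript fell and those of the beta and gamma chains did not pass the threshold. Fga, encoding the alpha chain (chromosome 3, 83026076 to 83033627 on GRCm38), stood at an FPKM of 789.9, 991 and 1178 in vehicle replicates 1 to 3 and at 335, 292 and 588 in DDK replicates 1 to 3. Every DDK liver was below every vehicle liver, with DDK replicate 3 the highest of its group. Fga fell by 1.33 ± 0.25 (SE) on the log2 scale (adjusted p = 0.00413, n = 3 per group by limma), from a mean of 986 ± 194 to 405 ± 160.2 (SD). Fgb, encoding the beta chain, stood at 1774, 1609 and 1653 in vehicle and 1564, 1422 and 1691 in DDK livers, so the groups overlapped (log2 fold change -0.11 ± 0.14, adjusted p = 0.563, 0.17 by median-ratio scaling and called lower by quantile normalization and TPM). Fgg, encoding the gamma chain, stood at 1274, 1169.8 and 1209 in vehicle and 916, 765 and 1183 in DDK (-0.37 ± 0.17, adjusted p = 0.111). Fgg also overlapped, because DDK replicate 3 lay above vehicle replicate 2, and without DDK replicate 3 its value passed (-0.54, adjusted p = 0.0308). It was also called lower by quantile normalization (-0.70, adjusted p = 0.0164), TPM (-0.61, 0.0153) and library weights (-0.42, 0.0348), so the difference in call between Fga and Fgg depends on these settings.

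Ratios of FPKM within a liver do not change with a single scaling factor per library (as in TPM or median-ratio scaling), so partner genes were also set against each other in each liver. They do change with quantile normalization and length correction: Klkb1 and Kng1, level with each other as deposited, had log2 fold changes of 0.81 and 0.38 by quantile normalization, and Vkorc1 and Ggcx of -0.31 and -0.43 by length correction. The ratio of Fga to Fgb was 0.445, 0.615 and 0.712 in vehicle and 0.214, 0.205 and 0.348 in DDK livers, with no overlap (difference of -1.22 in log2 ratio). The ratio of Fgg to Fgb was 0.718, 0.727 and 0.731 in vehicle and 0.586, 0.538 and 0.699 in DDK, again with no overlap but with a smaller difference (-0.26). The exact two-sided permutation test gave p = 0.10 for both, the smallest that 3 against 3 livers can give, and 0.17 after Benjamini-Hochberg adjustment over the 10 ratios computed, of which 9 are reported. The 3 genes lie within 42140 bp on chromosome 3. As measured in the same livers, 14 of 17 acute phase genes outside coagulation fell and 1 rose, beside 30.3% and 10.2% of all genes. Lcn2, lipocalin-2, was among those that fell (-3.88, adjusted p = 3.27e-05), and Hamp, hepcidin, was the 1 that rose (1.39, adjusted p = 0.00628). Il6ra, the interleukin-6 receptor, fell by 1.26 (adjusted p = 0.00424). The part of these genes in the fibrinogen values was not tested.

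**Figure D1:**
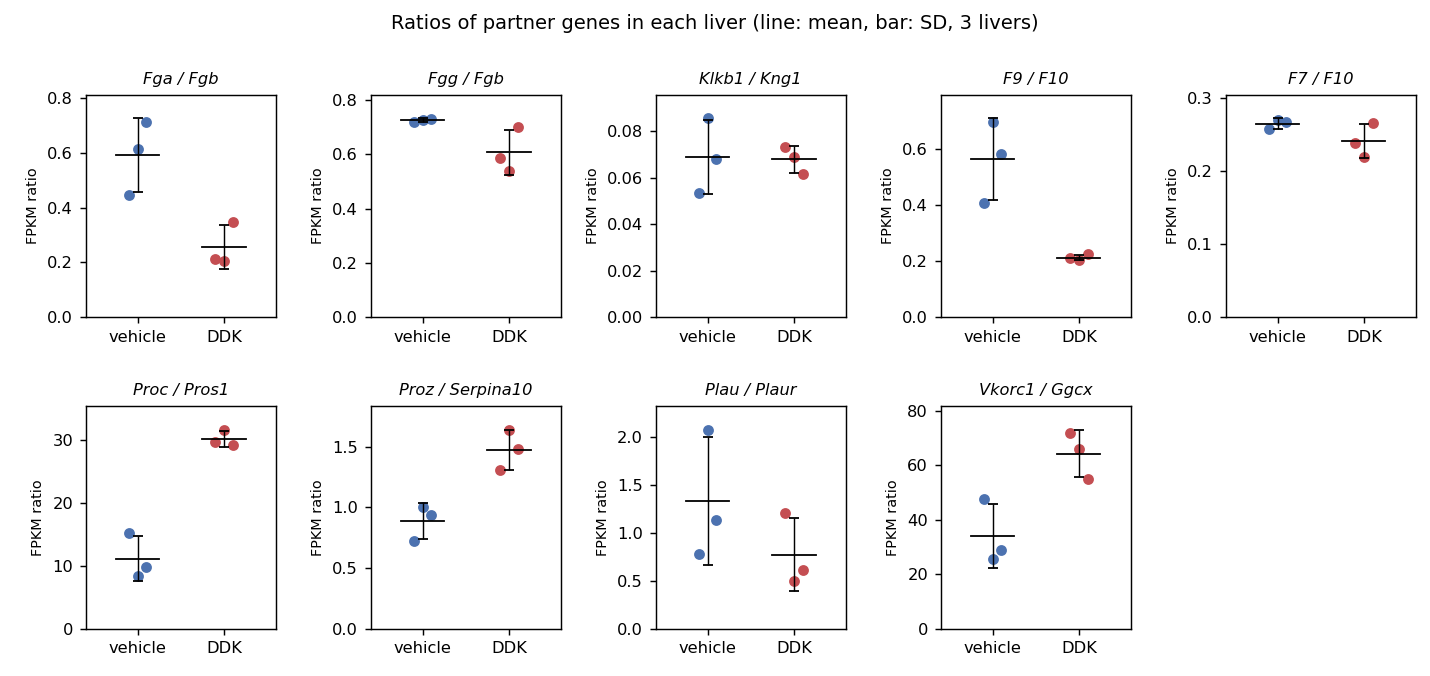
FPKM ratios of 9 pairs of partner genes in each of the 6 livers, with the group mean (line) and SD (bar, n = 3), on linear axes from 0. The Fga to Fgb, Fgg to Fgb, F9 to F10, Proc to Pros1, Proz to Serpina10 and Vkorc1 to Ggcx ratios do not overlap between groups, and Klkb1 to Kng1 lies at a like level in both, 0.0691 in vehicle and 0.0680 in DDK.

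Factor XIII is made of catalytic A and carrier B subunits, and the gene of the B subunit fell more than any other procoagulant gene tested. F13b (chromosome 1, 139501702 to 139523752) stood at an FPKM of 40.4, 78.8 and 69.6 in vehicle and 17.6, 14.8 and 22.5 in DDK livers. The lowest vehicle liver, replicate 1, was still above all DDK livers. Its log2 fold change was -1.69 ± 0.24 (adjusted p = 0.00145). F13a1, encoding the A subunit, which blood and tissue macrophages and platelets make, was close to the detection limit with 21, 13 and 36 fragments in vehicle and 9, 1 and 0 in DDK livers. The 0 in DDK replicate 3 allows an FPKM of up to 0.0203 (3 fragments), and F13a1 did not pass the filter on low values and was not tested. Macrophage markers moved the same way, as given above, and platelet markers summed to an FPKM of only 4.37 to 7.03 in vehicle and 3.12 to 4.67 in DDK. Their part in the F13a1 values was not tested, and in whole liver fewer cells of a type and less RNA per cell cannot be told apart.

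In the contact system, in which factor XII and prekallikrein activate each other on a kininogen carrier and then factor XI, the genes of prekallikrein and kininogen rose. Kng1, kininogen 1 and the source of bradykinin (chromosome 16, 23057865 to 23082078), stood at an FPKM of 808, 694 and 682 in vehicle and 1259, 1323 and 1163 in DDK livers. These values are per gene and do not tell its transcripts apart. Kng1 rose by 0.78 ± 0.14 (adjusted p = 0.00337) with no overlap. Klkb1, prekallikrein (chromosome 8, 45266689 to 45294859), stood at 43.3, 59.4 and 46.4 in vehicle and 92.2, 91.5 and 71.7 in DDK, and rose by 0.77 ± 0.16 (adjusted p = 0.00579). Both means were 1.71 times the vehicle mean, and the ratio of Klkb1 to Kng1 was 0.0691 ± 0.0160 in vehicle and 0.0680 ± 0.00588 in DDK (exact permutation p = 1). F11, whose gene lies 4657 bp from Klkb1, stood at 6.87, 16.5 and 9.10 in vehicle and 11.3, 11.7 and 10.1 in DDK. The DDK values of F11 lay inside the vehicle range (0.11 ± 0.25, adjusted p = 0.750, below 0 under TPM, with library weights and without vehicle replicate 1). F12, factor XII, stood at 293, 250.3 and 263 in vehicle and 233, 249.7 and 258 in DDK (-0.12 ± 0.13, adjusted p = 0.463, above 0 by median-ratio scaling or length correction, and called lower under TPM). Kng2 is a close copy of Kng1, so fragments may be divided between them in ways the sources do not state, and its mean was 109 ± 4.14 in vehicle and 114 ± 4.93 in DDK, a value looked up after that of Kng1 was seen.

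The vitamin K dependent genes went in opposite directions. F9, factor IX, the protease of the intrinsic route that is missing in haemophilia B (chromosome X, 59999464 to 60030759), stood at an FPKM of 53.4, 81.5 and 67.3 in vehicle and 35.1, 37.7 and 35.8 in DDK livers. It fell by 0.86 ± 0.16 (adjusted p = 0.00357), and the DDK livers lay within a narrow range below every vehicle liver. F10, factor X, which cleaves prothrombin (chromosome 8, 13037308 to 13056676), stood at 131, 117 and 115 in vehicle and 166, 185 and 160.2 in DDK, and rose by 0.49 ± 0.12 (adjusted p = 0.0128). Its neighbour F7, factor VII, the partner of tissue factor, stood at 33.6, 31.6 and 30.9 in vehicle and 39.6, 40.5 and 42.6 in DDK, and rose by 0.34 ± 0.12 (adjusted p = 0.0382). F2, prothrombin, stood at 712, 652 and 665 in vehicle and 585, 571 and 564 in DDK, without overlap but not past the threshold (-0.24 ± 0.12, adjusted p = 0.150). Its value was 0.04 after median-ratio scaling, and it was called lower by quantile normalization (-0.60, adjusted p = 0.00447) and TPM (-0.47, adjusted p = 0.00780). The ratio of F9 to F10 was 0.408, 0.698 and 0.583 in vehicle and 0.211, 0.204 and 0.224 in DDK (-1.37 in log2 ratio, exact permutation p = 0.10, adjusted 0.17). As F9 lay lower and F10 higher without overlap, this ratio could not overlap, so it restates the values of both genes. The ratio of F7 to F10 was 0.257, 0.271 and 0.267 in vehicle and 0.238, 0.219 and 0.266 in DDK, and overlapped.

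F7, F10 and Proz lie in a row within 49993 bp of chromosome 8, F7 ending 1498 bp before F10 and F10 ending 4237 bp before Proz, and all 3 rose. Proz, protein Z, a cofactor that helps to inhibit factor Xa, stood at an FPKM of 82.3, 83.1 and 82.6 in vehicle and 113, 110.5 and 97.0 in DDK, and rose by 0.36 ± 0.12 (adjusted p = 0.0350). The 3 calls were not equally firm. The call of F10 ended without DDK replicate 2 (adjusted p = 0.0669) or vehicle replicate 3 (0.0559), and that of F7 without any of DDK replicates 1 to 3 or vehicle replicates 2 or 3 (0.0918 to 0.122). That of Proz ended without DDK replicate 1 or 2 or vehicle replicate 2 or 3 (0.0816 to 0.138), and under TPM none of the 3 passed (adjusted p = 0.0846 to 0.449).

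The anticoagulant genes were likewise divided. Proc, protein C, whose activated form cuts factors Va and VIIIa, stood at an FPKM of 308, 216 and 229 in vehicle and 395, 400.3 and 329.6 in DDK livers. It rose by 0.59 ± 0.16 (adjusted p = 0.0193), and vehicle replicate 1 was the vehicle liver nearest to DDK. Pros1, protein S, the cofactor of activated protein C (chromosome 16, 62854307 to 62929346), stood at 20.3, 25.6 and 23.5 in vehicle and 13.3, 12.7 and 11.3 in DDK, and fell by 0.84 ± 0.14 (adjusted p = 0.00215). The enzyme and its cofactor thus moved apart. The ratio of Proc to Pros1 was 15.2, 8.44 and 9.77 in vehicle and 29.6, 31.6 and 29.2 in DDK (1.48 in log2 ratio, exact permutation p = 0.10, adjusted 0.17). As Proc lay higher and Pros1 lower without overlap, this ratio could not overlap and its unadjusted p was fixed in advance. The ratio therefore restates the values of both genes and adds no further test. The call of Proc ended without DDK replicate 1 or 2 or vehicle replicate 2 or 3 (adjusted p = 0.0693 to 0.0809), without a filter (0.0534), after quantile normalization (0.108) and under TPM (0.0535).

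Of the serpin inhibitors of coagulation, Serpinc1, Serpind1 and Serpina10 did not pass the threshold as deposited. Serpinc1, antithrombin, stood at an FPKM of 949, 731 and 741 in vehicle and 845, 964 and 973 in DDK livers (0.21 ± 0.15, adjusted p = 0.293, below 0 under quantile normalization and TPM). The groups overlapped, as vehicle replicate 1 lay above DDK replicate 1, and without vehicle replicate 1 it was called higher (0.33, adjusted p = 0.0493). Serpind1, heparin cofactor II, had means of 163 ± 19.8 in vehicle and 158 ± 5.43 in DDK (-0.04 ± 0.13, adjusted p = 0.825, above 0 after median-ratio scaling, after length correction and without vehicle replicate 2). Serpina10, the inhibitor that protein Z assists, stood at 114, 82.6 and 88.5 in vehicle and 86.5, 67.6 and 65.6 in DDK (-0.37 ± 0.16, adjusted p = 0.0938), and it was called lower under TPM (-0.61, adjusted p = 0.00797). The ratio of Proz to Serpina10 was 0.721, 1.01 and 0.933 in vehicle and 1.31, 1.63 and 1.48 in DDK, with no overlap (0.74 in log2 ratio, exact permutation p = 0.10, adjusted 0.17).

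Ggcx, the gamma-glutamyl carboxylase that modifies all vitamin K dependent factors (chromosome 6, 72414308 to 72430712), was lower in DDK livers. It stood at an FPKM of 5.53, 8.35 and 7.19 in vehicle and 3.32, 3.41 and 4.50 in DDK, and fell by 0.75 ± 0.17 (adjusted p = 0.00905). Vkorc1, which recycles vitamin K and is the target of warfarin, stood at 263, 214 and 207 in vehicle and 239, 225 and 247 in DDK, so its groups overlapped (0.06 ± 0.14, adjusted p = 0.729). Its direction turned under quantile normalization and TPM, and with length correction it was called lower (-0.31, adjusted p = 0.0485). Vkorc1l1, its paralog, fell by 0.68 ± 0.15 (adjusted p = 0.00730). The ratio of Vkorc1 to Ggcx was 47.5, 25.6 and 28.8 in vehicle and 71.8, 66.0 and 54.9 in DDK.

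Of the genes of tissue factor and of the cofactors factor V and factor VIII, F5 fell and F3 and F8 did not pass. F5, factor V, the cofactor of factor Xa (chromosome 1, 164151838 to 164220277), stood at an FPKM of 44.8, 74.2 and 70.8 in vehicle and 39.9, 37.3 and 34.02 in DDK livers (-0.72 ± 0.19, adjusted p = 0.0143). Vehicle replicate 1 was close to DDK replicate 1, and the call ended without vehicle replicate 3 (adjusted p = 0.0635), without a filter (0.0515) and after median-ratio scaling (0.0675). F8, factor VIII, the cofactor of factor IXa, stood at 1.13, 0.968 and 1.39 in vehicle and 0.856, 0.641 and 0.531 in DDK, without overlap and just short of the threshold (-0.37 ± 0.13, adjusted p = 0.0502). It passed with voom on recovered fragments (-0.80, adjusted p = 0.0261), under TPM (0.0187) and with library weights (0.0421), but stood at -0.09 (0.626) after length correction, F8 being the longest member (10274 bp). Fundc2 overlaps F8 on the opposite strand and the library kit does not mark strand. Its mean FPKM (2.78 in vehicle, 1.88 in DDK) was above that of F8 (1.16 and 0.676) and also lower in DDK, so reads of the 2 genes cannot be told apart where they overlap. F3, tissue factor, which starts coagulation, stood at 1.004, 2.39 and 1.99 in vehicle and 2.04, 1.46 and 2.06 in DDK (0.06 ± 0.20, adjusted p = 0.833, below 0 under TPM, with library weights and without vehicle replicate 1).

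Tfpi, the inhibitor of the tissue factor and factor VIIa complex, stood at an FPKM of 1.39, 1.35 and 1.58 in vehicle and 0.951, 1.25 and 0.766 in DDK livers (-0.30 ± 0.14, adjusted p = 0.0992), and it was called lower under TPM (-0.54, adjusted p = 0.0324) and stood at 0.00 with length correction. Thbd, thrombomodulin, which turns thrombin into an activator of protein C, stood at 0.842, 0.464 and 1.6 in vehicle and 0.206, 0.344 and 0.463 in DDK. Vehicle replicate 2 and DDK replicate 3 were almost level, at 59 and 52 fragments, and Thbd did not pass the filter and was not tested. F8, Tfpi and Thbd are genes of endothelial cells. Of 12 endothelial markers 6 fell, 0 rose and 6 did not pass, beside 30.3% and 10.2% of all genes lower and higher. The change was below 0 for 10 of the 12. Their summed FPKM overlapped between groups, with vehicle replicate 2 within the DDK range. The part of those markers in these 3 genes was not tested.

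**Figure D2:**
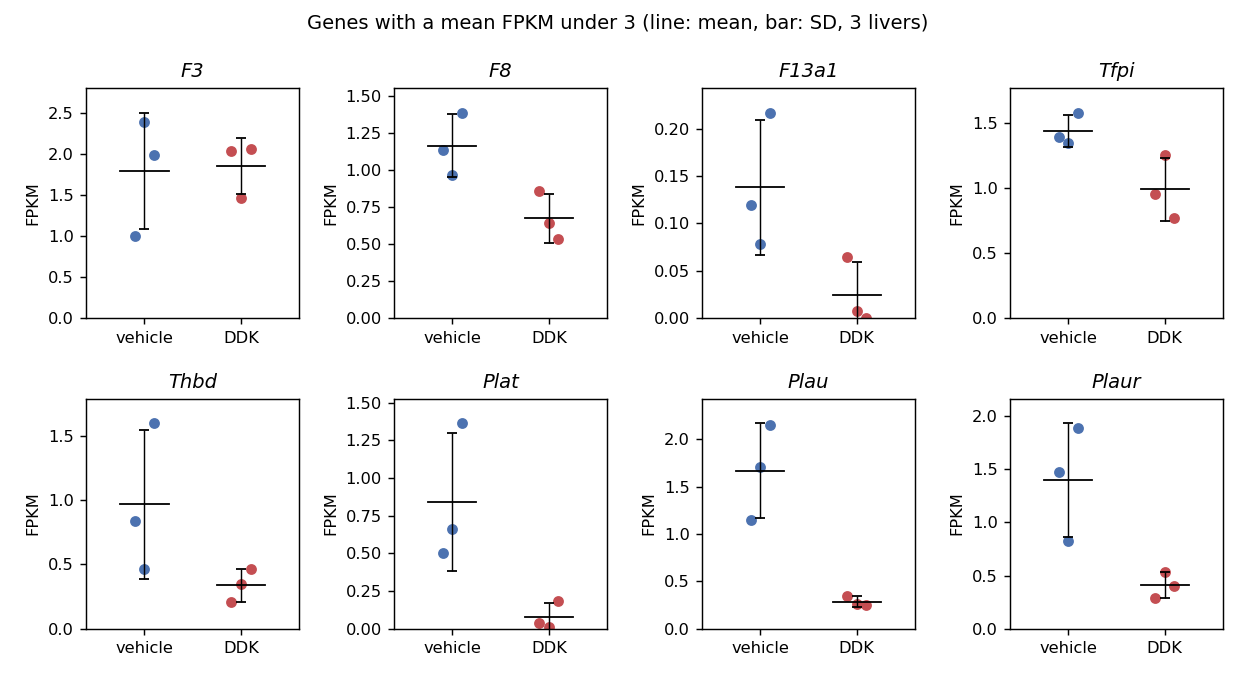
FPKM of the 8 members with a mean FPKM under 3 in each liver, on linear axes from 0, with the group mean (line) and SD (bar, n = 3). F3 overlaps, and each of the others lies lower in all 3 DDK livers than in any vehicle liver, as did 39.2% of all genes tested. F13a1 and Thbd were not tested.

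In fibrinolysis, the genes of the plasminogen activators fell and that of plasminogen did not. Plg, plasminogen, stood at an FPKM of 627, 664 and 662 in vehicle and 652, 658 and 677 in DDK livers (0.03 ± 0.12, adjusted p = 0.886). It was below 0 under TPM (-0.21) and called lower after quantile normalization (-0.36, adjusted p = 0.0489). Plau, urokinase (chromosome 14, 20836660 to 20843385), stood at 1.15, 1.71 and 2.15 in vehicle and 0.349, 0.263 and 0.245 in DDK, from 95, 134 and 167 against 23, 16 and 17 fragments. It fell by 1.04 ± 0.15 (adjusted p = 0.00157), a value that the added 1 makes smaller, and its value was -2.17 with a pseudocount of 0.1 (adjusted p = 0.00128). Plaur, the urokinase receptor, stood at 1.47, 0.826 and 1.89 in vehicle and 0.290, 0.531 and 0.403 in DDK, and fell by 0.75 ± 0.17 (adjusted p = 0.00887). Plat, tissue-type activator, stood at 0.5004 (48 fragments), 0.661 (60) and 1.36 (123) in vehicle and 0.0393 (3), 0.0142 (1) and 0.187 (15) in DDK, and fell by 0.75 ± 0.17 (adjusted p = 0.00823). The added 1 shrinks these values most for Plat, which is the lowest: with a pseudocount of 0.1, Plat stood at -2.40 and Plaur at -1.52, and by voom on recovered fragments Plat stood at -3.71, Plau at -2.48 and Plaur at -1.71. Plat and Plau passed the filter on low values only through the vehicle livers, so a gene that was low in DDK had to be among those tested, and with a minimum FPKM of 1 neither Plat nor Plaur was tested. The sums of macrophage and of stellate markers, given above, were lower in every DDK liver than in any vehicle liver, and the endothelial sums overlapped. The part of these markers in the 3 activator genes was not tested.

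The inhibitors of fibrinolysis showed no common direction. Cpb2, which removes plasminogen binding sites from fibrin, stood at an FPKM of 233, 239.95 and 210.3 in vehicle and 165, 156 and 185 in DDK livers, and fell by 0.43 ± 0.13 (adjusted p = 0.0242). Its call ended after median-ratio scaling (adjusted p = 0.450) and when DDK replicate 1 (0.0860), DDK replicate 2 (0.108) or vehicle replicate 2 (0.0780) was left out. Serpinf2, the plasmin inhibitor alpha 2-antiplasmin, stood at 209, 228 and 228 in vehicle and 246, 258 and 287 in DDK, without overlap but not past the threshold (0.25 ± 0.12, adjusted p = 0.133). It was called higher after median-ratio scaling (0.53, adjusted p = 0.0188) and length correction (0.43, 0.0145). The ratio of Plau to Plaur ranged from 0.779 to 2.07 in vehicle and 0.495 to 1.20 in DDK, so the groups overlapped.

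Of the 4 other plasma proteins, 1 fell. Habp2, a protease that activates urokinase and binds hyaluronan, stood at an FPKM of 57.8, 55.8 and 56.3 in vehicle and 40.2, 34.7 and 34.4 in DDK livers, and fell by 0.63 ± 0.12 (adjusted p = 0.00416; 0.0667 after median-ratio scaling). Of the other 4 members with a gene on the opposite strand, Habp2 overlaps Nrap (mean FPKM of 0.143 in vehicle and 0.173 in DDK) and Plg overlaps Slc22a3 (2.25 and 0.881). Serpinc1 overlaps Zbtb37 (0.325 and 0.473) and Serpind1 overlaps Pi4ka (6.03 and 4.13), and the partners' share of these members' reads was not tested. Vtn, vitronectin, which binds integrins and the urokinase receptor, stood at 1303, 1021 and 995 in vehicle and 1456, 1479.8 and 1464 in DDK (0.42 ± 0.15, adjusted p = 0.0521). Its groups did not overlap, and without vehicle replicate 1, the nearest to DDK, it passed (0.54, adjusted p = 0.00573). It was also called higher after median-ratio scaling (0.70, adjusted p = 0.0269), among other settings. Hrg, histidine-rich glycoprotein, which binds plasminogen and heparin, had means of 451 ± 26.2 and 490.1 ± 41.8 (0.12 ± 0.13, adjusted p = 0.487, below 0 under quantile normalization and TPM). Hgfac, the activator of hepatocyte growth factor and a relative of factor XII, had means of 55.4 ± 5.09 and 66.5 ± 7.80 (0.26 ± 0.14, adjusted p = 0.149), and it was called higher after median-ratio scaling (0.53, adjusted p = 0.0360), length correction (0.44, 0.0371) and library weights (0.35, 0.0211).

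**Figure D3:**
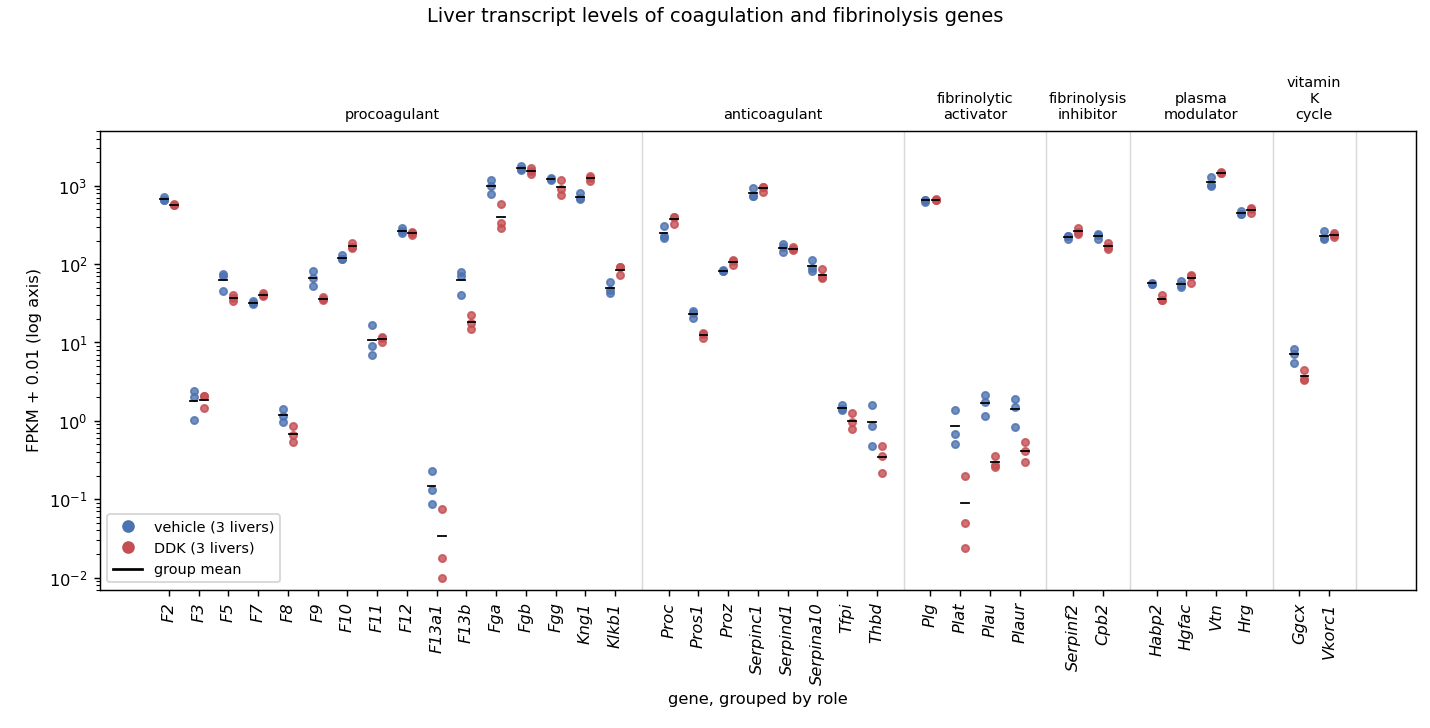
FPKM + 0.01 (log axis) of the 36 genes in the 3 vehicle (blue) and 3 DDK (red) livers, grouped by role, with the group mean as a line. Levels run from Fgb at a vehicle mean of 1679 to F13a1 at 0.138, and the low genes (F3, F8, F13a1, Tfpi, Thbd, Plat, Plau and Plaur) stand apart from the hepatocyte plasma proteins.

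Side by side, the role classes of procoagulant and anticoagulant genes were both divided, and in the activator class 3 genes fell and 0 rose. Of the 34 members tested, 11 fell and 6 rose, which is 32.4% and 17.6%, beside 30.3% and 10.2% of all genes. The share that fell was thus near the background. The groups did not overlap for 14 members that were lower and 8 that were higher, beside 39.2% and 14.1% of all genes (53.3% in either direction). Among procoagulant genes 4 of 15 tested fell (F5, F9, F13b and Fga), 4 rose (F7, F10, Kng1 and Klkb1) and 7 did not pass, with a median log2 fold change of -0.12, which is 0.11 above all genes. Among anticoagulant genes 1 of 7 tested fell (Pros1), 2 rose (Proc and Proz) and 4 did not pass, with a median of -0.04, which is 0.19 above all genes. Among the 4 activator genes 3 fell, but their median (-0.75) rests on genes that the filter kept partly through vehicle livers and is given as a description. No test of the difference between classes was made.

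Summed over the 16 procoagulant genes, most of which is the fibrinogen chains, Kng1 and F2, the FPKM was 6005, 5828 and 6063 in vehicle replicates 1 to 3 and 5297, 5043 and 5826 in DDK replicates 1 to 3. Summed over the 8 anticoagulant genes, it was 1619, 1322 and 1332 in vehicle and 1607, 1720.3 and 1635 in DDK. Vehicle replicate 2 was thus barely above DDK replicate 3 in the procoagulant sum, and vehicle replicate 1 lay inside the DDK range of the anticoagulant sum. Relative to all genes, the medians of both classes turned below 0 after quantile normalization (-0.31 and -0.08).

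**Figure D4:**
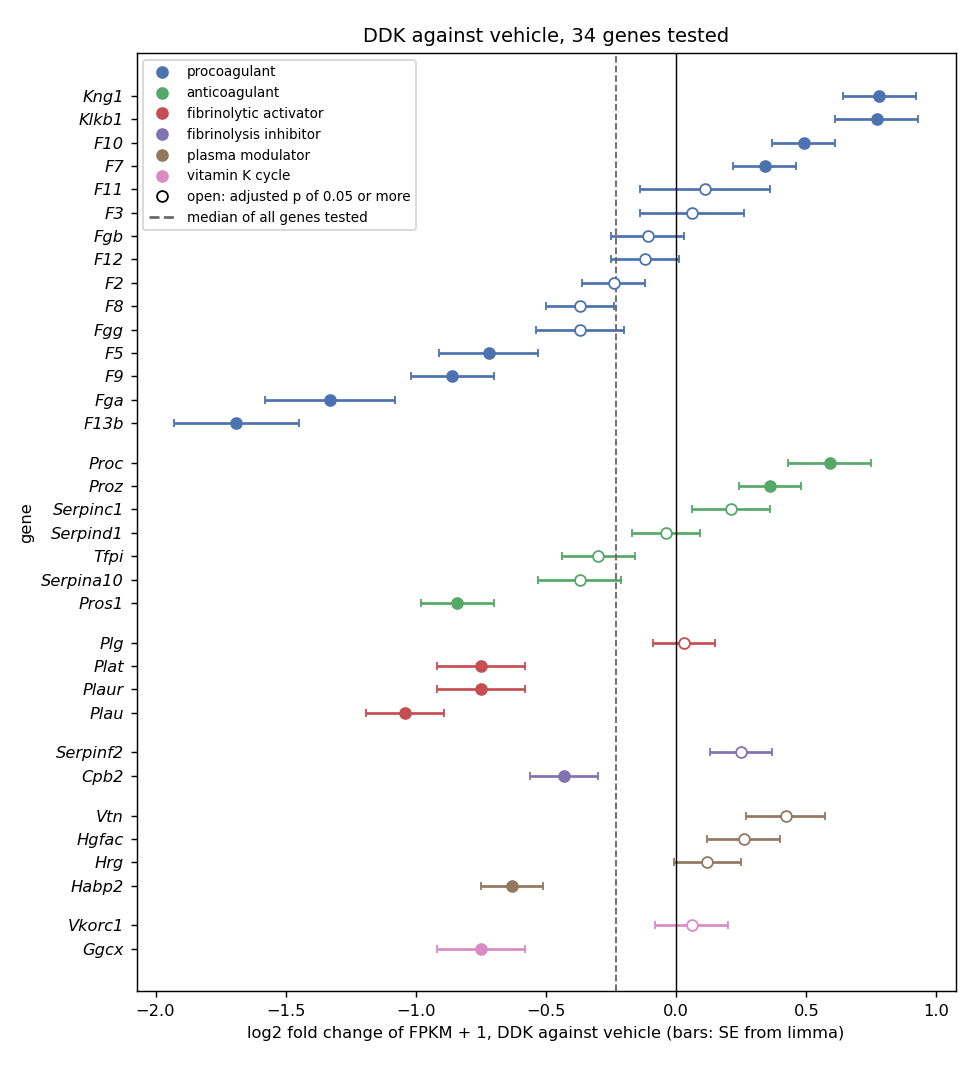
Log2 fold change of FPKM + 1 (DDK against vehicle) with its SE for the 34 genes tested, coloured by role, filled where the adjusted p was under 0.05. Points lie on both sides of 0 within the procoagulant and anticoagulant classes, from F13b at -1.69 to Kng1 at 0.78, and the dashed line is the median of all genes (-0.23).

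All 6 members that rose had a vehicle mean FPKM of at least 10. Of the 27 tested members with a vehicle mean FPKM of at least 10, 7 fell and 6 rose, and of the 7 tested below it 4 fell (Plat, Plau, Plaur and Ggcx) and 0 rose. Plat and Plau passed the filter on low values only through the vehicle livers, and the split is by the vehicle mean. These counts are therefore a description only, and the share of all genes at each level was not computed. Gene length had a weak relation to the change: across the 34 members Pearson's r of log2 length and log2 fold change was -0.14 and Spearman's rho -0.17, a description over genes that share the same 6 libraries. The genes that fell had a median length of 2649 bp and those that rose one of 2569.5 bp.

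The split of calls depended on how the libraries were scaled. FPKM sums were larger in DDK (589341 to 620981) than in vehicle libraries (496503 to 551961). Median-ratio factors were smaller in DDK (0.872 to 0.939) than in vehicle libraries (1.02 to 1.18). The part of either in the split was not tested. As deposited, 11 members fell and 6 rose, after median-ratio scaling 8 fell and 9 rose. The counts were 15 and 5 with quantile normalization, 18 and 2 with values rescaled to TPM, and 12 and 9 with a correction for length. For all genes, in the same order, the counts were 3234 lower and 1093 higher, 1791 and 1858, 1743 and 1886, 4929 and 631, and 1844 and 1722. The calls of F9, F13b, Fga, Kng1, Klkb1, Pros1, Plau and Ggcx stood in the same direction under all 17 alternatives, and those of Plat and Plaur under the 16 that tested them. The filter was set on all 6 livers even where 1 was left out. Plat and Plau reached its minimum only in vehicle livers, so without a vehicle liver they stayed tested only through the liver left out. The other 7 calls (F5, F7, F10, Proc, Proz, Cpb2 and Habp2) were lost under at least 1, and 11 of the 17 members not past the threshold passed it under at least 1.

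**Figure D5:**
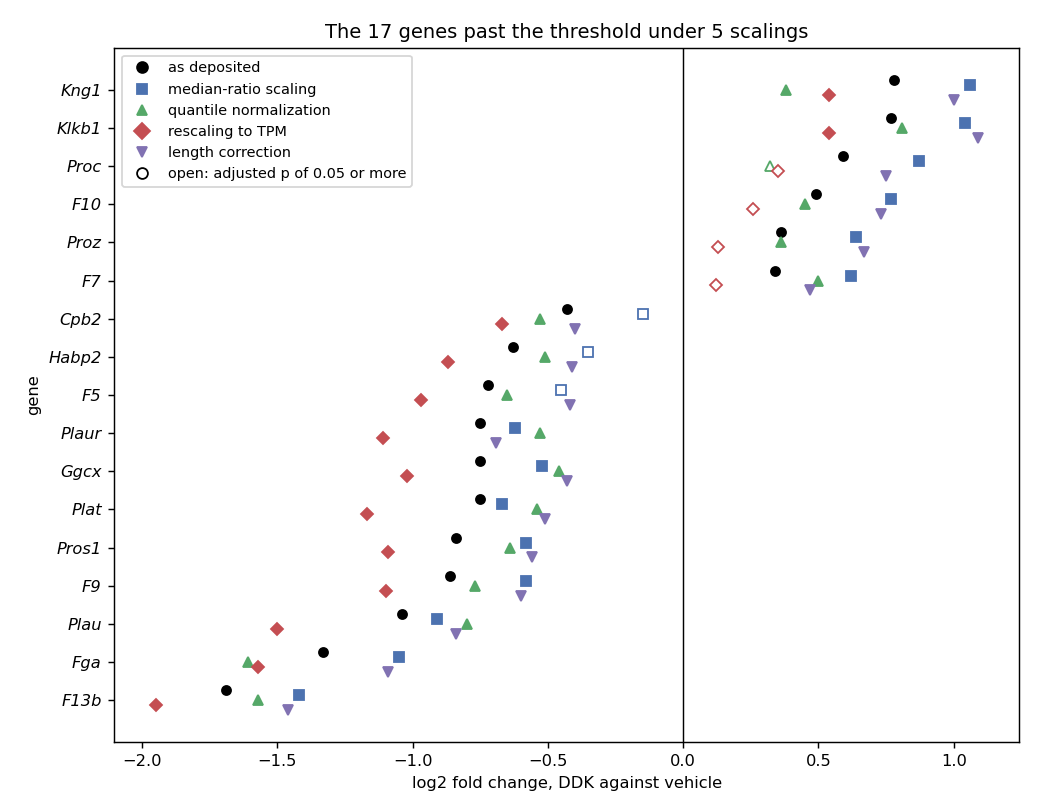
Log2 fold change of the 17 members past the threshold as deposited and under 4 other treatments of the values, filled where the adjusted p was under 0.05. No gene changes sign, and open points are found for Proc, F10, Proz, F7, Cpb2, Habp2 and F5.

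Other genes of the pathway, from a list that leaves out the members, gave 10 of 29 tested lower and 3 higher in DDK, beside the same 30.3% and 10.2% of all genes. Anxa2, a cell surface receptor for plasminogen and its tissue-type activator, fell by 3.04 ± 0.12 (adjusted p = 3.57e-06), from an FPKM of 61.5 ± 3.33 to 6.60 ± 0.458. Tgm2, a tissue transglutaminase of the factor XIII family, fell by 0.99 ± 0.16 (adjusted p = 0.00215), and Tfpi2, an inhibitor of plasmin and other proteases, by 0.79 ± 0.17 (adjusted p = 0.00733). Fgl2, a membrane prothrombinase, fell by 0.79 ± 0.17 (adjusted p = 0.00682), and Pzp, the murine relative of alpha 2-macroglobulin, by 0.75 ± 0.16 (adjusted p = 0.00701). Mcfd2, part of the receptor that carries factors V and VIII out of the endoplasmic reticulum, fell by 0.64 ± 0.14 (adjusted p = 0.00679), a call lost after median-ratio scaling. Serpina1a, an alpha 1-antitrypsin gene with near-identical copies among which fragments may be divided, rose by 1.19 ± 0.21 (adjusted p = 0.00294). Vwf, von Willebrand factor, had means of 0.625 ± 0.143 in vehicle and 0.349 ± 0.0765 in DDK (-0.27 ± 0.12, adjusted p = 0.0930, 0.02 after length correction). Procr, the endothelial protein C receptor, had means of 0.736 ± 0.144 and 0.457 ± 0.165 (-0.26 ± 0.13, adjusted p = 0.134). Serping1, the C1 inhibitor that also blocks kallikrein and factor XII, had means of 381 ± 32.7 and 329 ± 15.2 (-0.21 ± 0.13, adjusted p = 0.209, 0.07 after median-ratio scaling).

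Beside the complement genes, the other protease cascade that hepatocytes secrete, the members' median lay higher. Of 20 complement genes tested 9 fell and 2 rose, beside 30.3% and 10.2% of all genes. Their median log2 fold change was 0.18 below that of all genes, where that of the 34 members lay 0.11 above. No test of that difference was made, and after quantile normalization the members lay at -0.29 and the complement genes at -0.54 relative to all genes. Of 15 regulators of hepatocyte genes 6 fell and 0 rose, beside the same shares of all genes. Among those that fell was Cebpa, a transcription factor of many liver-made plasma proteins (-0.73, adjusted p = 0.00340).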

How the data were processed

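RNA of 6 snap-frozen mouse livers (3 DDK, 3 vehicle, 1 library per mouse) was sequenced as total RNA with a kit that does not mark strand, per the labels' protocols. The authors deposited FPKM values per gene symbol. The build was GRCm38 (mm10), per the submitters' processing notes, and the sources used here do not give the aligner, the counter or the annotation. FPKM steps gave whole fragments within 0.01 for 88614 of 88617 values, from which the depths were read. log2(FPKM + 1) was tested with limma 3.58.1 in R 4.3.3 (with an intensity trend) for the 10681 genes that reached an FPKM of 0.5 in 3 or more livers. p-values were adjusted by Benjamini-Hochberg over all of them. On data simulated for this comparison (10571 genes), 21.2% of genes changed 1.5-fold, 90.5% changed 2-fold and 100% changed 4-fold were recovered, with 3.55% false calls. The simulation gave every gene the same spread, changed few genes and shifted no library. In the real data 40.5% of genes were called, the median change was -0.23 and the spread between replicates was uneven. The simulated shares are therefore not the recovery or false-call rates of these data. The members and lists were chosen with earlier results of these data known, all members are described, and of the other pathway genes those past the threshold with the 8 smallest p are named, with Vwf, Serping1 and Procr whatever their p, and of each further list up to 2 (1 further gene of the rule, and the ratio that uses it, are not reported here). Alb and Hamp were named after their values were seen. The partner ratios, chosen by function after the values were seen, were tested by exact two-sided permutation of the livers. The 17 alternatives were other pseudocounts and filters, median-ratio scaling, quantile normalization, TPM, length correction, voom on the recovered fragments, library weights, a replicate block and leaving out each liver. Gene positions are from GENCODE M21, and lengths are those recovered from the FPKM steps.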

Additional observations from a re-analysis of the deposited data

How the results depend on the processing

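Counts of calls moved both with the scaling and when a liver was left out, and the cause was not tested. Of all genes, 3234 lower and 1093 higher became 1791 and 1858 by median-ratio scaling, 1743 and 1886 by quantile normalization, 4929 and 631 by TPM, and 1844 and 1722 by length correction. Member calls became 18 lower and 2 higher by TPM. Procoagulant calls (4 and 4) became 7 lower by quantile normalization, and 9 lower and 2 higher by TPM. Anticoagulant calls (1 and 2) became 1 higher by quantile normalization or with no filter, and 3 lower and 0 higher by TPM. Calls in other pathway genes (10 and 3) became 5 higher by median-ratio scaling, 17 lower and 1 higher by TPM, and 1 higher with no filter. With a filter at an FPKM of 1, 1 activator was lower, since Plat and Plaur were not tested. Livers of the same number did not deviate together (correlations of 0.14, -0.15 and 0.06), and with the replicate number as a block 3082 genes were lower and 1052 higher, 12 members lower and 4 higher, and 2 anticoagulant genes lower and 1 higher, as Serpina10 passed (adjusted p = 0.0482) and Proz (0.0534) did not. Leaving out each liver in turn gave 1738 to 4330 genes lower and 610 to 1356 higher, the lowest of both without DDK replicate 2 and the highest without vehicle replicate 1. Members were then 10 to 12 lower and 2 to 8 higher (3 without DDK replicate 1, 2 without DDK replicate 2, 3 without vehicle replicate 2 and 2 without vehicle replicate 3). Procoagulant genes were 3 to 5 lower and 2 to 4 higher, and anticoagulant genes 1 lower and 0 to 3 higher. Other pathway genes were 8 to 12 lower and 1 to 3 higher. Activators stayed at 3 lower and 0 higher, but the filter had been set on all livers before any was left out. Plat and Plau reached its minimum only in vehicle livers. Without a vehicle liver they stayed tested only through the liver left out, so for them these counts do not show stability. Genes not past the threshold whose sign turned were, by median-ratio scaling, F2 (0.04), F12 (0.16), Fgb (0.17), Serpind1 (0.24) and Serping1 (0.07). By quantile normalization they were Serpinc1 (-0.18), Plg (-0.36), Hrg (-0.27) and Vkorc1 (-0.06). By TPM they were F3 (-0.11), F11 (-0.11), Serpinc1 (-0.03), Plg (-0.21), Hrg (-0.12), Vkorc1 (-0.17) and Kng2 (-0.18). By length correction they were F12 (0.03), Serpind1 (0.15), Vkorc1 (-0.31) and Vwf (0.02), and by library weights F3 (-0.11) and F11 (-0.05). Without a single liver, F3 ranged from -0.16 to 0.21, F11 from -0.15 to 0.43 and Serpind1 from -0.13 to 0.04, with the sign turned without vehicle replicate 1 for F3 and F11 and without vehicle replicate 2 for Serpind1. The partner ratios kept their sign without any single liver, except Klkb1 to Kng1 (-0.17 to 0.17). Depth limits F13a1 and Plat, with as few as 0 and 1 fragments in a DDK liver.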
